A study of Mus musculus with 9 samples.

Results

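Foxp3, Il2ra, Ctla4, Ikzf2, Ikzf4, Icos, Tnfrsf4, Tnfrsf9, Tnfrsf18 and Tigit are genes that regulatory T cells use or that T cells carry as co-stimulatory and inhibitory receptors. They were chosen by symbol, with earlier results of these data known, so shares of all genes given beside them are a description. All 10 were found among the 54532 genes of the table, each as 1 protein-coding gene. RNA was sequenced from mouse skin biopsies in 3 groups of 3 libraries, all labelled as wild type. The groups were skin exposed to bleomycin and treated with nitrate, applied to the skin per the series title (below, nitrate), skin exposed to bleomycin without nitrate, and skin of healthy controls. Bleomycin is a DNA-breaking antibiotic that induces skin fibrosis in mice and serves as a model of systemic sclerosis. The sources used here do not give strain, sex, age, doses, times or the number of animals. The tests therefore take up only how far libraries of a group lie apart, and part of that may be technical.

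Regulatory T cells are CD4 T cells that restrain other immune cells, and Foxp3 is the transcription factor that defines them. They bind interleukin 2 through CD25, the product of Il2ra, and carry CTLA-4, which competes with the activating receptor CD28 for the ligands CD80 and CD86. ICOS, OX40 (Tnfrsf4), CD137 (Tnfrsf9) and GITR (Tnfrsf18) give activating signals and are found on activated conventional T cells as well. Skin holds many regulatory T cells, in part beside hair follicles.

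Levels are given in FPKM, fragments scaled to gene length and library depth, so that genes of different length can be compared. Whole reads could be recovered from the values and came to 15804050 to 18352592 per library. Keratinocyte markers summed to 5052 to 8195 FPKM with nitrate, 6741 to 9870 with bleomycin and 2608 to 4419 in control. Hair follicle markers set libraries of 1 group apart, with sums of 1427 to 9641 FPKM with nitrate, 45.3 to 2992 with bleomycin and 6.76 to 1628 in control. Bleomycin 1 and control 1 were the lowest of their groups. Differences are of log2(FPKM + 1) ± standard error from limma, and each p was adjusted by Benjamini-Hochberg over the 21382 genes with a mean of at least 0.1 FPKM, all 10 genes among them. The added 1 understates differences between values near or below 1 FPKM, where most of these genes lie.

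Promoter sequences of the genes that rose, and of Foxp3, are shown because these genes had their highest levels in the same group. RefSeq promoters of mm10 (GRCm38.p6) matched 7 of the 10 genes with 9 start sites, and Ikzf2, Ikzf4 and Icos had no entry. The stretches of Tigit, Foxp3 and the upstream start of Tnfrsf9 hold no exon of their gene in GENCODE M21. Both Tnfrsf9 stretches lie inside the annotated gene, whose first exon is further upstream, and the shorter one lies in an exon. Capitals mark a match to a motif of NF-kB (GGG, any 3 bases, then TTCC), a transcription factor that acts below T cell and TNF receptors.
Tnfrsf9 upstream start, chr4:150919905-150920154, plus strand: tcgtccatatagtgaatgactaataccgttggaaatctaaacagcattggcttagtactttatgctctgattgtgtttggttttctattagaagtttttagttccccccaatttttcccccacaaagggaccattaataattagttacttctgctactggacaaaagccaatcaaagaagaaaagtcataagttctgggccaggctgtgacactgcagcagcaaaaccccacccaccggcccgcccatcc
Tnfrsf9 downstream start, site only, in a UTR of another transcript of the gene, chr4:150927946-150927975, plus strand: cagagcagctGGGGATTTCCcaggaggccc
Tigit, chr16:43664185-43664434, minus strand: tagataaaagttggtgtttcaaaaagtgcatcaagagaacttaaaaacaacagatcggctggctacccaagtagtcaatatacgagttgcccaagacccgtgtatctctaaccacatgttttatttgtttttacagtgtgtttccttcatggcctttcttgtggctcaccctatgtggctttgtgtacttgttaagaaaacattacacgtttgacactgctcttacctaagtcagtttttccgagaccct
Foxp3, chrX:7579426-7579566, plus strand: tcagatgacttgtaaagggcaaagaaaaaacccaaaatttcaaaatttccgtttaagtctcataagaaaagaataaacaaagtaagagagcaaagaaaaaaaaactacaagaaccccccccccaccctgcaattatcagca

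Both strands of the 250 bases before each start were searched. The NF-kB letters were found at 2 of the 9 starts, the downstream start of Tnfrsf9 and that of Il2ra, against 4.65% of 32851 promoters of this length. The AP-1 letters TGANTCA were found at 1 of the 9, again the downstream start of Tnfrsf9, 15 bases before it, against 6.75% of promoters. The forkhead letters TGTTTAC were found at 0 of the 9, against 3.17%. The letters TATAAA lay 32 bases before the upstream start of Foxp3, beyond the letters shown, and at no other of the 9, against 12.4%. A match is a description of letters and not a binding site.

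Bleomycin was compared with control to see what the drug changed. Of the 10 genes 3 rose and 0 fell, where 3.08% of all genes rose and 2.30% fell (5.38% called in all). Tnfrsf9, Icos and Tigit passed. By voom on the recovered reads Foxp3 passed as well, making 4, where 6.47% of all genes were called. At an unadjusted p under 0.05, 6 were higher and 1 lower, against 11.6% and 10.5% of all genes (22.2% in all). Foxp3 had a larger ratio of mean FPKM than any of these, 11.2, but lay just outside the threshold. The groups did not overlap for 6 genes that were higher and for 1, Ikzf2, that was lower, against 15.3% and 14.5% of all genes. The median difference over the 10 genes was 0.65, and 0.0028 over all genes. In bulk tissue, more cells of a type and more RNA per cell cannot be told apart.

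Nitrate was compared with bleomycin to see what nitrate changed in exposed skin. None of the 10 genes, and 0 of 21382 genes in all (0.00%), passed limma's test, and voom on the recovered reads called 0 as well. Of all genes 3285 (15.4%) had an unadjusted p under 0.05. At that level 6 of the 10 were lower and 0 higher, namely Foxp3, Il2ra, Ctla4, Icos, Tnfrsf9 and Tigit, where 8.73% of all genes were lower and 6.64% higher. The groups did not overlap for 5 genes, all lower with nitrate, against 10.2% of all genes that were lower and 8.87% that were higher. The median difference was -0.58, and 0.0033 over all genes. Both comparisons use the same bleomycin libraries.

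**Figure D1:**
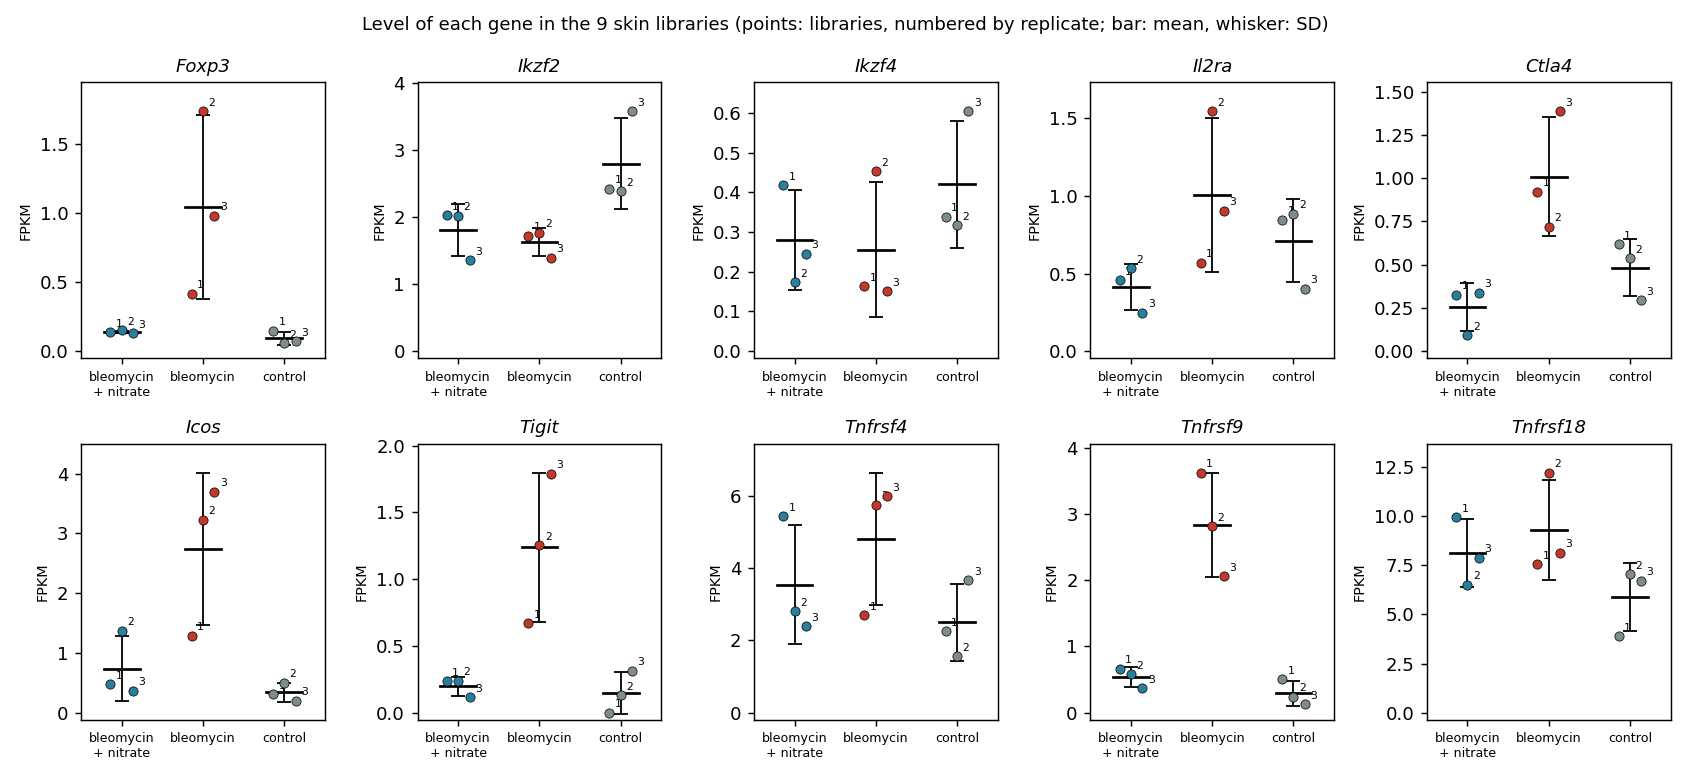
FPKM (y axis, linear, 1 scale per gene) of each of the 10 genes in the libraries of bleomycin with nitrate, bleomycin and control; points are libraries numbered by replicate, bars means and whiskers SD of 3 libraries. Tnfrsf9, Icos, Tigit and Foxp3 stand highest in bleomycin skin, while Ikzf2 stands highest in control skin.

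Among the transcription factors, Foxp3 (ENSMUSG00000039521, chromosome X, 7579676 to 7595243 in mm10, plus strand) had 0.137, 0.1505 and 0.132 FPKM in nitrate 1, 2 and 3, against 0.415, 1.74 and 0.981 FPKM in bleomycin 1, 2 and 3, and 0.148, 0.0596 and 0.0721 FPKM in control 1, 2 and 3. These values rest on 10, 11 and 10 reads with nitrate, 27, 120 and 69 reads with bleomycin, and 9, 4 and 5 reads in control. Every bleomycin library lay above the other 6, while nitrate and control overlapped, and the bleomycin libraries differed from each other more than the libraries of either other group did. The difference of bleomycin from control was 0.85 ± 0.21 (adjusted p = 0.0548, limma). It passed with a pseudocount of 0.1 (adjusted p = 0.0284) or 0.5 (0.0431), in voom (0.02625) and without bleomycin 1 (0.0215), over a range of 0.0215 to 0.167. Voom put it at 3.39 ± 0.76 on the log2 scale of depth-scaled reads, where the median of all genes was 0.13. Between nitrate and bleomycin the difference was -0.79 ± 0.21 (adjusted p = 0.168, limma), and between nitrate and control 0.06 ± 0.21 (adjusted p = 0.888).

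Ikzf2 (chromosome 1, 69531214 to 69687245, minus strand) encodes Helios, an Ikaros family factor that many regulatory T cells carry. It did not follow Foxp3, with 2.03, 2.02 and 1.35 FPKM in nitrate 1, 2 and 3, against 1.72, 1.77 and 1.39 FPKM in bleomycin 1, 2 and 3, and 2.42, 2.39 and 3.58 FPKM in control 1, 2 and 3. Its reads came to 430, 466 and 723 in control 1, 2 and 3, against 9, 4 and 5 for Foxp3. Ikzf2 is the longer gene, at 11613 bases against 3989 for Foxp3. In FPKM the control means were 2.80 for Ikzf2 and 0.0931 for Foxp3. Which cells the Ikzf2 reads came from was not tested. In FPKM of Ikzf2, both exposed groups lay below every control library and overlapped each other. The difference of bleomycin from control was -0.52 ± 0.17 and did not pass (adjusted p = 0.118, limma), nor did that of nitrate from control at -0.43 ± 0.17 (adjusted p = 0.159). Ikzf4, which encodes the related factor Eos, a partner of Foxp3, ranged from 0.173 to 0.418 FPKM with nitrate, from 0.151 to 0.453 with bleomycin and from 0.317 to 0.604 in control. All groups overlapped and no comparison passed, with differences of -0.18 ± 0.14 for bleomycin from control (adjusted p = 0.496) and 0.03 ± 0.14 for nitrate from bleomycin (adjusted p = 0.949).

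Il2ra (chromosome 2, 11642807 to 11693193, plus strand) had 0.458, 0.535 and 0.249 FPKM in nitrate 1, 2 and 3, against 0.569, 1.55 and 0.904 FPKM in bleomycin 1, 2 and 3, and 0.847, 0.885 and 0.403 FPKM in control 1, 2 and 3. Bleomycin and control overlapped, and all nitrate libraries lay below all bleomycin libraries. Neither the difference of bleomycin from control (0.21 ± 0.21, adjusted p = 0.583, limma) nor that of nitrate from bleomycin (-0.48 ± 0.21, adjusted p = 0.315) passed.

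The immunoglobulin-type receptors had their highest levels with bleomycin. Icos (ENSMUSG00000026009, chromosome 1, 60977927 to 61000320, plus strand), a relative of CD28 that supports effector and regulatory T cells, had 0.477, 1.37 and 0.368 FPKM in nitrate 1, 2 and 3, against 1.29, 3.23 and 3.70 FPKM in bleomycin 1, 2 and 3, and 0.305, 0.503 and 0.201 FPKM in control 1, 2 and 3. It rose with bleomycin over control (1.42 ± 0.30, adjusted p = 0.0354, limma), with no overlap of the groups. Nitrate 2 lay above bleomycin 1, so nitrate and bleomycin overlapped (-1.08 ± 0.30, adjusted p = 0.173). Tigit (ENSMUSG00000071552, chromosome 16, 43648867 to 43664146, minus strand), an inhibitory receptor for the nectin-type ligand CD155, had 0.237, 0.238 and 0.114 FPKM in nitrate 1, 2 and 3, against 0.667, 1.26 and 1.79 FPKM in bleomycin 1, 2 and 3, and 0, 0.129 and 0.313 FPKM in control 1, 2 and 3. The 0 in control 1 allows up to 3 reads, or 0.214 FPKM, by counting error alone. Tigit rose with bleomycin (0.94 ± 0.19, adjusted p = 0.0314), on 10 to 29 reads per library against 0 to 5 in control. With nitrate every library was below every bleomycin library, and the difference did not pass (-0.87 ± 0.19, adjusted p = 0.138).

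The calls of Icos and Tigit were lost in several settings. That of Icos was lost without nitrate 1 (adjusted p = 0.0506), bleomycin 2 (0.101), bleomycin 3 (0.112), control 1 (0.0880), control 2 (0.0938) or control 3 (0.102), with the hair follicle marker mean as a covariate (0.0662), and without control 1 and bleomycin 1 together (0.0621). That of Tigit was lost without bleomycin 2 (0.0831), bleomycin 3 (0.0794), control 1 (0.0895), control 2 (0.109) or control 3 (0.0565), with only the compared groups in the fit (0.0624), and without control 1 and bleomycin 1 together (0.0615). With no filter on low genes both were lost (0.0631 and 0.0577). Their differences stayed above 0 in all these settings.

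Ctla4 (chromosome 1, 60887000 to 60915832, plus strand) had 0.327, 0.0937 and 0.338 FPKM in nitrate 1, 2 and 3, against 0.921, 0.719 and 1.39 FPKM in bleomycin 1, 2 and 3, and 0.618, 0.536 and 0.296 FPKM in control 1, 2 and 3. All bleomycin libraries lay above all others. The differences were 0.43 ± 0.17 for bleomycin from control (adjusted p = 0.176, limma) and -0.67 ± 0.17 for nitrate from bleomycin (adjusted p = 0.154), and neither passed. Between nitrate and control it was -0.24 ± 0.17 (adjusted p = 0.401).

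The TNF receptor genes differed among themselves, and 1 of the 3 passed. Tnfrsf9 (ENSMUSG00000028965, chromosome 4, 150914562 to 150946102, plus strand) had 0.661, 0.582 and 0.367 FPKM in nitrate 1, 2 and 3, against 3.63, 2.82 and 2.06 FPKM in bleomycin 1, 2 and 3, and 0.505, 0.240 and 0.127 FPKM in control 1, 2 and 3. Each bleomycin library was above each of the other 6. It rose with bleomycin over control (1.56 ± 0.19, adjusted p = 0.00628, limma), and this call held in all alternatives run (adjusted p 0.00333 to 0.0362). Nitrate lay below bleomycin by -1.30 ± 0.19, which did not pass (adjusted p = 0.0723, range 0.0543 to 0.236). Within bleomycin its order was the reverse of that of Tigit and Icos, with bleomycin 1 highest.

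Tnfrsf4 (chromosome 4, 156013843 to 156016612, plus strand) had 5.43, 2.80 and 2.39 FPKM in nitrate 1, 2 and 3, against 2.70, 5.75 and 5.98 FPKM in bleomycin 1, 2 and 3, and 2.25, 1.57 and 3.67 FPKM in control 1, 2 and 3. All groups overlapped, and the differences were 0.72 ± 0.34 for bleomycin from control (adjusted p = 0.262, limma) and -0.36 ± 0.34 for nitrate from bleomycin (adjusted p = 0.665). Tnfrsf18 (chromosome 4, 156026164 to 156028895, plus strand), the highest of the 10 genes in every group, had 9.94, 6.52 and 7.90 FPKM in nitrate 1, 2 and 3, against 7.57, 12.2 and 8.15 FPKM in bleomycin 1, 2 and 3, and 3.91, 7.06 and 6.72 FPKM in control 1, 2 and 3. Bleomycin did not overlap control, but the difference did not pass (0.59 ± 0.25, adjusted p = 0.206). The difference of nitrate from bleomycin was -0.17 ± 0.25 (adjusted p = 0.797).

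**Figure D2:**
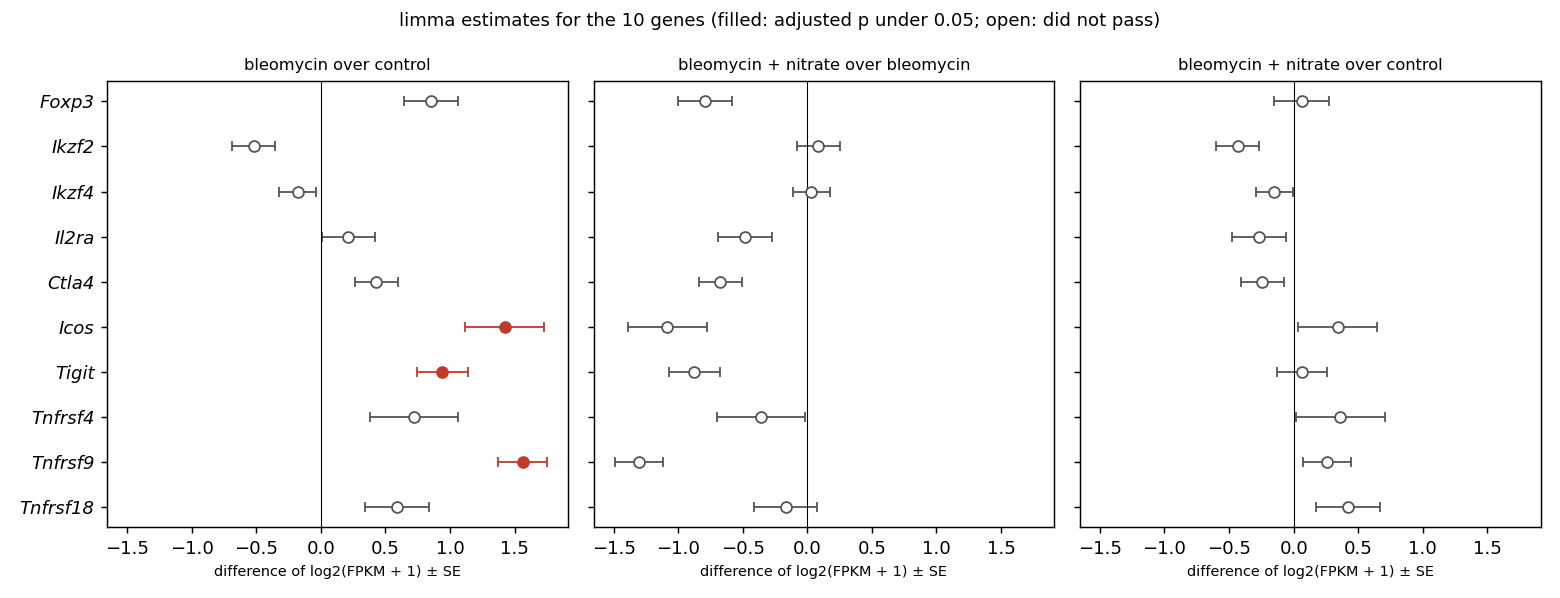
limma estimates of the difference of log2(FPKM + 1) (x axis, ± SE) for the 10 genes (y axis) in the 3 comparisons, filled where the adjusted p was under 0.05. Only Tnfrsf9, Icos and Tigit are filled, all for bleomycin over control, at 1.56, 1.42 and 0.94.

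Between nitrate and control, 0 of the 10 genes passed limma's test and 0 passed voom's, where limma called 4.34% of all genes (1.69% higher, 2.66% lower) and voom 6.91%. At an unadjusted p under 0.05 Ikzf2 alone was reached, lower with nitrate, where 12.7% of all genes were lower and 12.5% higher at that level (25.2% in all). Ikzf2 was also the 1 gene whose groups did not overlap, against 14.3% of all genes that were lower and 14.5% that were higher. The median difference over the 10 genes was 0.06, and 0.01 over all genes.

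Tnfrsf18 was first in each group and did not overlap the next gene, while the order of the others differed between groups. With nitrate the order went on with Tnfrsf4, Ikzf2, Icos, Tnfrsf9, Il2ra, Ikzf4, Ctla4, Tigit and Foxp3, and from Ikzf2 on no neighbours were apart. In bleomycin skin it was Tnfrsf4, Tnfrsf9, Icos, Ikzf2, Tigit, Foxp3, Ctla4, Il2ra and Ikzf4, of which only Ikzf4 stood apart from its neighbour. Control had Ikzf2, Tnfrsf4, Il2ra, Ctla4, Ikzf4, Icos, Tnfrsf9, Tigit and Foxp3, with a gap between Tnfrsf4 and Il2ra alone. Foxp3 was the lowest of the 10 genes in nitrate and control skin but not in bleomycin skin, where Ikzf4 was.

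The ligands and partner receptors were mostly low as well. Of 15 listed genes 14 were tested, and with bleomycin over control 2 rose and 0 fell (median 0.34), with 7 higher and 1 lower at an unadjusted p under 0.05. Tnfsf9, the ligand of the Tnfrsf9 receptor, had 0.465, 0.719 and 1.02 FPKM in nitrate 1, 2 and 3, against 1.81, 1.48 and 1.71 FPKM in bleomycin 1, 2 and 3, and 0.203, 0.645 and 0.535 FPKM in control 1, 2 and 3. It rose with bleomycin (0.88 ± 0.17, adjusted p = 0.0258, limma). Cd80, a ligand of CTLA-4 and CD28 on antigen-presenting cells, averaged 0.927 ± 0.484 FPKM with nitrate, 2.61 ± 0.793 with bleomycin and 0.487 ± 0.147 in control (SD, n = 3 each). It rose with bleomycin too (1.26 ± 0.22, adjusted p = 0.0181). Between nitrate and bleomycin 0 of the same list passed by limma or voom, 7 were lower at an unadjusted p under 0.05, and the median was -0.39. There Cd80 had -0.92 ± 0.22 (adjusted p = 0.152) and Il2rg, the common gamma chain of the interleukin 2 receptor, -1.17 ± 0.30 (adjusted p = 0.160). Tnfsf4, the ligand of OX40, lay below the filter, with 0, 1 and 0 reads in nitrate 1, 2 and 3, against 9, 8 and 7 reads in bleomycin 1, 2 and 3, and 0, 2 and 1 reads in control 1, 2 and 3. Il2 itself had 0 to 6 reads in any library. Between nitrate and control 0 of the list passed limma's test, with 0.60 ± 0.18 for Icosl, the ligand of ICOS (adjusted p = 0.0940, and 0.0469 by voom), and 0.59 ± 0.26 for Nectin2 (adjusted p = 0.196).

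Other genes of regulatory T cells went partly the same way. Of 18 listed 17 were tested, and with bleomycin over control 3 rose and 0 fell (median 0.60). At an unadjusted p under 0.05, 9 were higher and 2 lower. The lower ones were Nt5e, which encodes the AMP-hydrolysing enzyme CD73 (-0.73 ± 0.23, adjusted p = 0.108, limma), and Nrp1, a receptor of regulatory T cells and of vessels (-0.49 ± 0.21, adjusted p = 0.209). Ccr8, a chemokine receptor of regulatory T cells in tissue, averaged 0.291 ± 0.164 FPKM with nitrate, 1.39 ± 0.263 with bleomycin and 0.252 ± 0.200 in control (SD, n = 3 each). It rose with bleomycin (0.94 ± 0.17, adjusted p = 0.0183, limma). Areg, an EGF receptor ligand made by keratinocytes as well as by regulatory T cells, rose by 2.498 ± 0.55 (adjusted p = 0.0382) but was not called by voom. Prdm1, which encodes Blimp-1 and is also used by epidermal cells, rose by 0.89 ± 0.20 (adjusted p = 0.0416). Between nitrate and bleomycin 0 of the 17 passed by limma or voom, though 8 were lower and 1 higher at an unadjusted p under 0.05 (median -0.47), with -0.89 ± 0.17 for Ccr8 (adjusted p = 0.112) and -0.63 ± 0.17 for the cytokine gene Il10 (adjusted p = 0.168).

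Of 12 other co-receptors 1 rose with bleomycin over control and 0 fell (median 0.39), with 6 higher and 0 lower at an unadjusted p under 0.05. The gene that rose was Pdcd1, which encodes the inhibitory receptor PD-1, with 0.198, 0.198 and 0.163 FPKM in nitrate 1, 2 and 3, against 0.636, 1.35 and 2.58 FPKM in bleomycin 1, 2 and 3, and 0, 0.0308 and 0.0298 FPKM in control 1, 2 and 3. Its difference was 1.23 ± 0.24 (adjusted p = 0.0266, limma). Of 15 signalling and Ikaros family genes 5 were higher and 4 lower at that level, with 1 called in each direction (median 0.09). Runx3, a factor of T cells and other leukocytes, rose (1.24 ± 0.16, adjusted p = 0.00813). Foxo1, a factor of resting T cells that other tissues express too, fell by 0.50 ± 0.09 on the same scale (adjusted p = 0.0223) and was not called by voom. Between nitrate and bleomycin 0 genes of either list passed by limma or voom, with 6 lower of the 12 co-receptors and 5 lower and 2 higher of the 15 others at an unadjusted p under 0.05. The smallest p values were those of Cd40, an activating receptor of antigen-presenting cells (-0.86 ± 0.17, adjusted p = 0.112), Pdcd1 (-1.01 ± 0.24, 0.151), Runx3 (-0.64 ± 0.16, 0.164) and the Ikaros gene Ikzf1 (-0.94 ± 0.24, 0.166).

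General T cell genes were set beside the 10 genes. Of 16 T cell markers 5 rose with bleomycin over control and 0 fell (median 0.55), namely Cd4 (1.92 ± 0.20, adjusted p = 0.00477, limma), Trbc2 (1.28 ± 0.15, 0.00567), Trac (1.83 ± 0.29, 0.0128), Cd5 (1.14 ± 0.21, 0.0232) and Lat (1.08 ± 0.21, 0.0238). Cd4, the co-receptor of helper and regulatory T cells, had 1.82, 1.88 and 0.834 FPKM in nitrate 1, 2 and 3, against 4.67, 5.17 and 5.23 FPKM in bleomycin 1, 2 and 3, and 0.389, 0.914 and 0.528 FPKM in control 1, 2 and 3. The CD3 genes did not pass, with 0.42 ± 0.20 for Cd3d (adjusted p = 0.260, limma), -0.01 ± 0.14 for Cd3e (0.978) and 0.35 ± 0.23 for Cd3g (0.407). Between nitrate and bleomycin 16 of the 16 were lower but 0 passed by limma, with 6 at an unadjusted p under 0.05, among them Cd4 (-1.29 ± 0.20, adjusted p = 0.0723) and Trac (-0.94 ± 0.29, 0.196). Between nitrate and control Trbc2 (0.92 ± 0.15, adjusted p = 0.0217) and Cd5 (1.08 ± 0.21, adjusted p = 0.0345) rose while none of the 10 genes did.

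To set Foxp3 against T cells of the same library, its reads were given per 100 reads of Cd3d, Cd3e and Cd3g together, a ratio of reads and not of cells. It was 5.71, 8.73 and 8.13 in nitrate 1, 2 and 3, against 21.3, 49.8 and 25.7 in bleomycin 1, 2 and 3, and 8.82, 2.42 and 2.82 in control 1, 2 and 3. All bleomycin libraries were above all others. The means were 7.53 ± 1.60 with nitrate, 32.2 ± 15.4 with bleomycin and 4.69 ± 3.58 in control (SD, n = 3 each). The two-sided exact permutation p was 0.1 for bleomycin over control and for nitrate under bleomycin, the smallest that 3 libraries against 3 allow, and 0.4 for nitrate and control. Over the 9 such tests on 3 denominators, the smallest adjusted p was 0.225. The reads behind the ratio were few, with 123 to 175 CD3 reads per library with nitrate, 127 to 269 with bleomycin and 102 to 177 in control.

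The ratio depended on which T cell gene it was set against. Per 100 reads of Trbc1 and Trbc2, the constant segments of the T cell receptor beta chain, Foxp3 averaged 3.06 ± 0.69 with nitrate, 18.4 ± 12.8 with bleomycin and 4.13 ± 1.64 in control. Per 100 reads of Cd4 it averaged 10.3 ± 4.61 with nitrate, 20.2 ± 12.3 with bleomycin and 19.2 ± 16.3 in control. The exact permutation p was 0.9 for bleomycin and control and 0.2 for nitrate and bleomycin. Control 1, at 37.5 on 24 Cd4 reads, was highest of all 9 libraries there. The reads of Foxp3, Ctla4, Icos, Tigit and Il2ra together, per 100 CD3 reads, were 60.6 to 127.8 with nitrate, 155.1 to 213.3 with bleomycin and 41.8 to 118.6 in control, and bleomycin lay above both other groups. Per 100 reads of Trbc1 and Trbc2 the same sum was 21.9 to 40.8 with nitrate, 52.7 to 138.5 with bleomycin and 43.5 to 121.6 in control, so bleomycin overlapped control and nitrate lay below both. Per 100 Cd4 reads it was 78.5 to 121.9 with nitrate, 64.2 to 142.4 with bleomycin and 200 to 504.2 in control. There bleomycin and nitrate overlapped each other and lay below every control library. Bleomycin and control thus stood in the opposite order to that per CD3 reads.

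**Figure D3:**
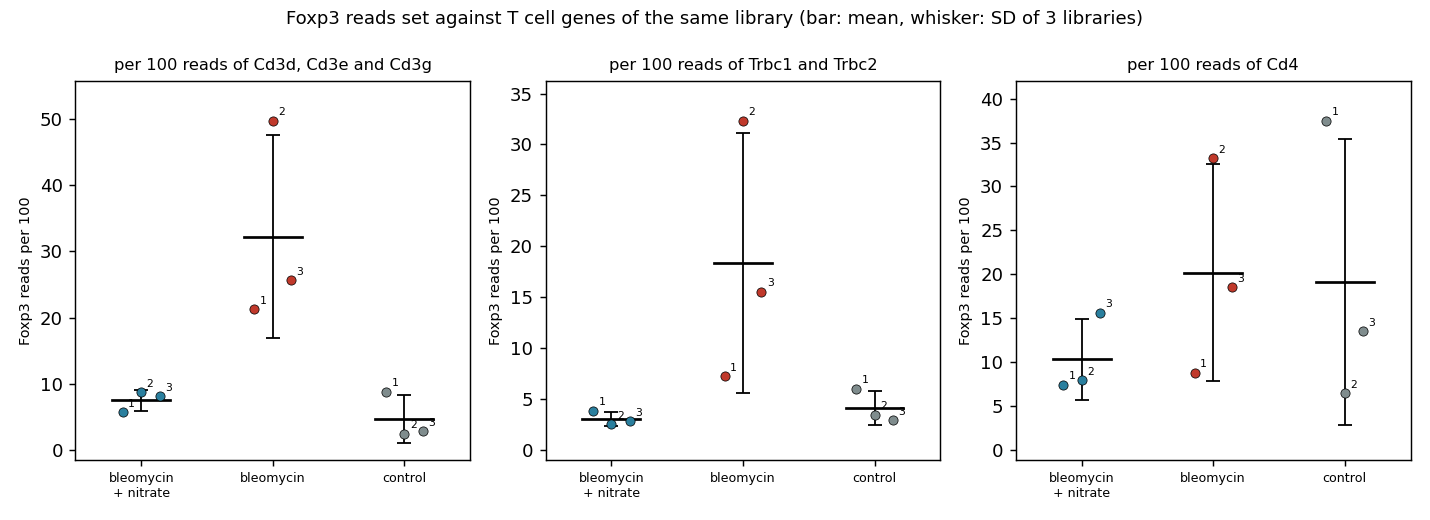
Foxp3 reads per 100 reads (y axis) of the CD3 genes, of Trbc1 and Trbc2, and of Cd4, in libraries of bleomycin with nitrate, bleomycin and control; points are libraries numbered by replicate, bars means and whiskers SD of 3 libraries. Bleomycin stands above both other groups in the panels of the CD3 genes and of Trbc1 and Trbc2, and overlaps them in the panel of Cd4.

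Other immune cells can carry some of these receptors, and their marker lists differed in how they stood between the groups. Summed markers of dendritic cells, macrophages and neutrophils were higher in every bleomycin library than in any other, while those of mast cells overlapped between nitrate and bleomycin. Dendritic cell markers summed to 114 to 209 FPKM with nitrate, 298 to 420 with bleomycin and 129 to 186 in control, and 3 of 10 rose with bleomycin over control. H2-Ab1 was the largest part of each sum. Another 3 of the 10, Zbtb46, Xcr1 and Clec9a, had differences below 0, 1 of them at an unadjusted p under 0.05 (Zbtb46, -0.51 ± 0.17, adjusted p = 0.135, limma). Mast cell markers summed to 97.1 to 190.1 FPKM with nitrate, 183 to 242 with bleomycin and 60.4 to 110.1 in control, with 4 of 10 higher. Macrophage markers summed to 325 to 832 FPKM with nitrate, 1014 to 1832 with bleomycin and 434 to 647 in control, with 1 of 10 higher. Lyz2 was the largest part of each sum. Of the 10, 2 had differences below 0, 1 of them at an unadjusted p under 0.05. Cd163 averaged 4.04 FPKM with bleomycin and 8.25 in control. Neutrophil markers summed to 82.1, 183.9 and 22.6 FPKM in nitrate 1, 2 and 3, against 3208, 456 and 484 FPKM in bleomycin 1, 2 and 3, and 33.6, 10.8 and 20.2 FPKM in control 1, 2 and 3, and 5 of 7 tested rose with bleomycin over control. Between nitrate and bleomycin 0 markers of these lists passed by limma or voom, and at an unadjusted p under 0.05 6 dendritic cell, 5 mast cell, 8 macrophage and 6 neutrophil markers were lower. T cell markers summed to 34.7 to 50.1 FPKM with nitrate, 52.1 to 67.1 with bleomycin and 19.45 to 23.4 in control, with Cd8b1 in control 1 the only one at 0 reads. Of 8 tested gamma-delta T and NK cell markers 0 passed in any comparison by limma or voom (at an unadjusted p under 0.05, 0 for bleomycin from control, 2 for nitrate from bleomycin and 1 for nitrate from control), with sums of 5.51 to 9.40 FPKM with nitrate, 7.26 to 15.6 with bleomycin and 9.58 to 12.6 in control. The part of these cells in the levels of the 10 genes was not tested.

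**Figure D4:**
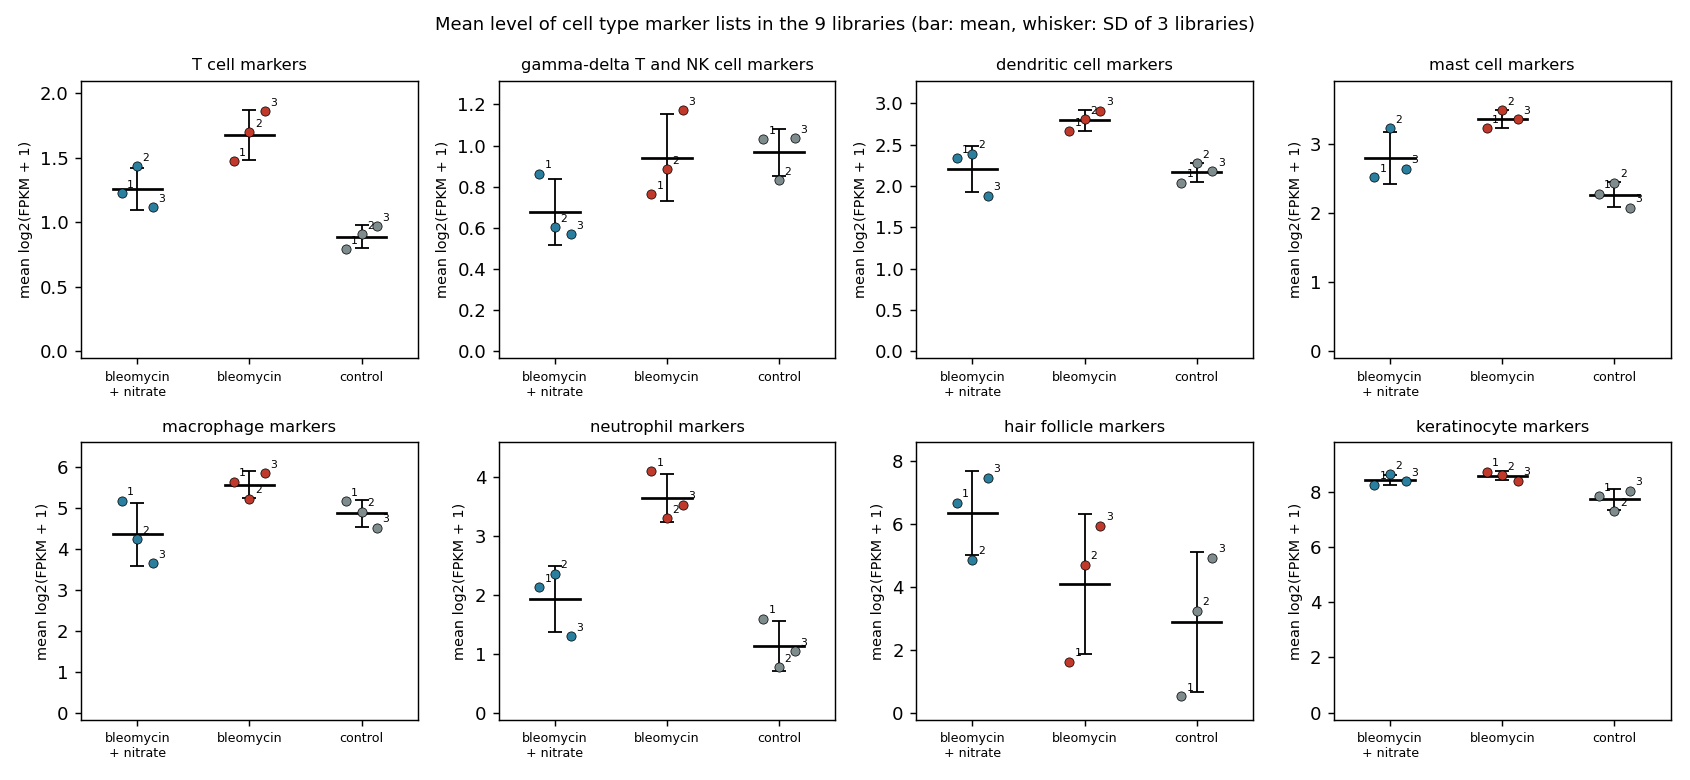
Mean log2(FPKM + 1) (y axis) of 8 lists of cell type markers in libraries of bleomycin with nitrate, bleomycin and control; points are libraries numbered by replicate, bars means and whiskers SD of 3 libraries. T cell, dendritic, macrophage and neutrophil lists stand highest in bleomycin skin, and hair follicle markers differ widely within each group.

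Within bleomycin, replicate 1 was the lowest library for Foxp3, Icos, Tigit, Il2ra, Tnfrsf4 and Tnfrsf18, and the highest for Tnfrsf9. It was also lowest in T cell markers (52.1 FPKM in sum, against 58.2 and 67.1) and in hair follicle markers (45.3 FPKM, against 1188 and 2992), and highest in the sum of neutrophil markers (3208 FPKM, against 456 and 484). Most of that sum was S100a8 (1389 FPKM) and S100a9 (1792 FPKM). Of the other neutrophil markers, Cxcr2 and Ly6g (on 1 read) were also highest in bleomycin 1. Csf3r and Mmp8 lay between bleomycin 2 and 3, and Clec4d and Retnlg were lowest in bleomycin 1. The part of these differences in the level of Tnfrsf9 was not tested. Without bleomycin 1, Tnfrsf9 differed by 1.42 ± 0.19 between bleomycin and control (adjusted p = 0.0180, limma). The neutrophil marker sums of bleomycin 2 and 3 also lay above those of every control library. Without control 1 and bleomycin 1 together, 149 genes were called between bleomycin and control, and Tnfrsf9 was the 1 member among them.

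By Pearson correlation of log2(FPKM + 1) with Foxp3 over the 9 libraries, the genes most like it of 21381 were Acod1 (r = 0.983), Igkv1-135 (0.968), Igkv6-15 (0.968), Gm13709 (0.967) and Trbj1-2 (0.967). Acod1, the itaconate-making enzyme of activated macrophages, had 0.395, 0.0624 and 0.0200 FPKM in nitrate 1, 2 and 3, against 0.982, 4.27 and 2.23 FPKM in bleomycin 1, 2 and 3, and 0.299, 0 and 0 FPKM in control 1, 2 and 3. Igkv1-135, Igkv6-15 and Trbj1-2 are antibody and T cell receptor segments listed at 0 in all libraries but bleomycin 2 and 3. Icos ranked 80th, Tigit 108th, Tnfrsf9 397th, Il2ra 559th and Tnfrsf4 1159th. Ctla4 ranked 1512th and Tnfrsf18 1779th, while Ikzf4 (r = -0.07) and Ikzf2 (r = -0.47) were far down. The 9 libraries fall into the study's groups and share them between genes, so these values are a description.

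Several of the genes lie close together. Icos starts 62094 bases beyond Ctla4, and Ctla4 113640 bases beyond Cd28, all on the plus strand of chromosome 1. Tnfrsf18 starts 9551 bases beyond Tnfrsf4 on chromosome 4. In neither pair did both genes pass the test. Some gene models overlap others in the table, and the sources used here do not say whether reads were counted by strand. Camta1, on the opposite strand of Tnfrsf9, averaged 4.21 FPKM with nitrate, 3.09 with bleomycin and 3.58 in control over the whole gene. Flicr, a non-coding gene that overlaps Foxp3 on the same strand, averaged 0.115 FPKM with nitrate, 0.0222 with bleomycin and 0.0215 in control. Ccdc22, a protein-coding gene that overlaps Foxp3 on the opposite strand, averaged 0 FPKM in each group. The part of overlapping genes in the reads of Tnfrsf9 and Foxp3 was not tested.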

How the data were processed

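The deposited file holds the authors' FPKM for every gene in each of the 9 libraries, in mm10 per the submitters' processing notes; libraries were made from total RNA with the SMARTer mRNA kit per the labels' protocols, and the aligner and counter are not given in the sources used here. In each library, FPKM multiplied by length came out as whole multiples of a single step (100% of values, within 0.01), which gave whole reads. Groups came from the sample titles. The test was limma 3.58.1 (R 4.3.3) on log2(FPKM + 1), 3 group means in 1 fit, eBayes with trend and robust, two-sided, with genes of a mean of at least 0.1 FPKM over all 9 libraries, and a call at an adjusted p under 0.05. It was also run on simulated counts, with the same fixed spread for every gene and without the hair follicle differences seen within groups. That run cannot show how the test behaves with such differences. Count tests were not run on the FPKM values, and voom on the recovered reads was an alternative. Trgc1 was not found among the listed symbols. The 10 genes and the lists were chosen with earlier results of these data known. Named from each list were up to 4 called genes per comparison with the smallest p, or up to 2 where none was called, while Lat, Nt5e, Il2, Tnfsf4 and the CD3 genes were named after their values were seen. Alternatives were pseudocounts, filters, scalings, which groups entered the fit, a block for replicate number, voom and leaving out libraries. The hair follicle covariate and leaving out control 1 and bleomycin 1 together were added after the data were seen. Figures used matplotlib 3.10.9 in Python 3.11.15.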

Additional observations from a re-analysis of the deposited data

How the results depend on the processing

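Of 585 values of the 10 genes under 20 alternatives, 553 kept their direction and side of the threshold, 17 lost a call, 4 gained one and 11 changed direction. Those that changed were small and uncalled: for nitrate from bleomycin, Ikzf4 with the hair follicle covariate (-0.055), without control 1 and bleomycin 1 together (-0.021) and leaving out nitrate 1, bleomycin 1 or bleomycin 3 (-0.047 to 0.139 over all 9 libraries left out in turn), and Tnfrsf18 without bleomycin 2 (-0.31 to 0.026); for nitrate from control, Foxp3 (-0.12), Tnfrsf4 (-0.12) and Tigit (-0.28) with the covariate, and Tigit without control 1, alone (-0.027 to 0.169) or with bleomycin 1 (-0.027). Genes called for bleomycin from control came to 1151, 676 with no filter, 149 without control 1 and bleomycin 1 together, and 296 to 1318 leaving out 1 library, and members called to 3, 1, 1 and 1 to 4. Leaving out any bleomycin or control library moved that gene count by over 1.5 times. For nitrate from bleomycin 16 genes passed without control 1 and bleomycin 1 together and 0 to 25 leaving out 1 library, with 0 members. For nitrate from control 929 passed, 294 with no filter, 74 with only the groups compared, 1477 in voom, 4 with the covariate, 28 without control 1 and bleomycin 1 together and 43 to 2484 leaving out 1 library (lowest without control 2, highest without nitrate 2), with 0 members; there 38.9% of calls were higher, against 62.4% in voom. For bleomycin from control that share was 57.3%, and 68.1% in voom. With the replicate number as a block, 889 genes and 3 members were called for bleomycin from control, and 667 and 0 for nitrate from control. Same-numbered libraries had deviations correlated at -0.326 to 0.434, over 0.1 in 5 of 9 pairs, and the best match had the same number in 9 of 18 cases. With so few libraries this cannot tell whether they share more than a number. Foxp3 per 100 CD3 reads differed by 27.5 for bleomycin from control (18.8 to 33.03 leaving out 1 library, 1.04 per 100 Cd4 reads), by -24.7 for nitrate from bleomycin (-30.2 to -15.9) and by 2.83 for nitrate from control (1.70 to 4.90, -1.07 with Trbc1 and Trbc2, -8.84 with Cd4). The cause was not tested. Depth limits Foxp3 and Tigit most, at 11 reads or fewer per library outside bleomycin.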

Other observations

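Between nitrate and control, a few genes of the same lists passed although none of the 10 genes did. In this comparison 361 genes were called higher and 568 lower, against 1 and 3 with the hair follicle marker mean as a covariate. The calls below were not followed with that covariate or with libraries left out. Prdm1, which encodes Blimp-1, averaged 13.7 ± 2.46 FPKM with nitrate and 5.74 ± 1.83 in control (SD, n = 3 each), and rose (1.14 ± 0.20, adjusted p = 0.0269, limma). Tnfrsf25, a TNF receptor of T cells, averaged 1.59 ± 0.160 FPKM with nitrate and 0.581 ± 0.113 in control, and rose (0.71 ± 0.15, adjusted p = 0.0417). Nrp1, a receptor of regulatory T cells and of vessels, averaged 5.32 ± 1.56 FPKM with nitrate and 11.2 ± 2.27 in control, and fell by 0.96 ± 0.21 on the log2(FPKM + 1) scale (adjusted p = 0.0436). Socs2, a feedback inhibitor of STAT5 signalling, averaged 1.33 ± 0.542 FPKM with nitrate and 2.87 ± 0.103 in control, and fell by 0.76 ± 0.18 (adjusted p = 0.0494).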
